A study of Mus musculus with 8 samples.

Results

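The 9 genes described here encode transcription factors of naive pluripotency, the state of mouse embryonic stem cells (mESCs) that resembles the preimplantation epiblast. They are Klf2, Klf4, Klf5, Esrrb, Nr5a2, Nr0b1, Tfcp2l1, Tbx3 and Prdm14. They were found by gene name, and each name had 1 row among the 24849 rows of every file. All 9 passed the filter on low values (a mean above 1 FPKM in at least 1 condition), as did 13214 rows in all. FPKM count fragments scaled by transcript length and by the number of mapped fragments, so levels can be compared between genes per length.

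Poly(A) RNA of wild-type and Pcgf5-/- (mutant) mESCs was sequenced before (day 0) and 6 days after a switch to N2B27 medium, in which mESCs differentiate towards neural cells. Both genotypes were MPI-II cells of the strain 129S2/SvPas, which at day 0 were kept on feeder cells in serum medium with LIF and the "2i" inhibitors CHIR99021 (of GSK3) and PD0325901 (of MEK). Each of the 4 conditions, wild type at day 0, Pcgf5-/- at day 0, wild type at day 6 and Pcgf5-/- at day 6, had 2 samples (#1 and #2). The Pcgf5-/- cells came from colonies picked after cutting with TALENs (designed nucleases) and drug selection, so the genotype and the history of the picked cells cannot be told apart. PCGF5 is a subunit of Polycomb repressive complex 1, and the comparisons ask how its loss changes gene expression in mESCs and during neural differentiation.

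Naive factors form a network in which LIF and both inhibitors feed different members. LIF acts through STAT3 on Klf4 and Tfcp2l1. Inhibition of GSK3 lifts the repressor TCF7L1 from genes such as Esrrb, and inhibition of MEK protects KLF2 from ERK. The factors sustain each other and OCT4, SOX2 and NANOG, and their decline is among the first steps when mESCs leave the naive state.

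Short promoter windows show which genes carry letters that factors of this network can bind. RefSeq promoters (GRCm38.p6, 250 bases before to 50 after a gene's start) were given for 6 of the 9 genes, with 8 promoters in all, since Nr5a2 and Esrrb have 2 each. The motifs searched, on both strands, were GGGNGTG for KLF factors, TTCNNNGAA for STAT factors, AAGGTCA for ESRRB and NR5A2, and ATGCAAA for POU factors such as OCT4. The KLF letters were found in promoters of 4 genes (4 of 8 promoters, against 29.2% of the 32851 promoters in the table), and the STAT letters in 1 promoter, of Esrrb (8.30% of all promoters). Neither of the other motifs was found in the 8 promoters (AAGGTCA in 4.72% and ATGCAAA in 4.63% of all). Each window below is written 5′ to 3′ on the gene's strand with the matching letters in capitals, and CACNCCC is the KLF motif on the opposite strand.
Esrrb, STAT motif (chr12:86360929-86360957, match from 178 bases before the start): aacggaaactTTCGTGGAAagcacttgag
Esrrb, KLF motif (chr12:86360886-86360912, from 221 bases before): aggagagctgCACACCCtccctgcctc
Tfcp2l1, KLF motif (chr1:118627875-118627901, from 60 bases before): ctgcaataacCACGCCCctaatgccac
Tfcp2l1, KLF motif (chr1:118627889-118627915, from 46 bases before): cccctaatgcCACGCCCacctgacggc
Nr5a2, KLF motif (chr1:136953771-136953797, from 157 bases before): ctccgggtgaGGGCGTGgagcccagga
Nr0b1, KLF motif (chrX:86191612-86191638, from 153 bases before): ccagcttctaGGGAGTGtttgcccctt
A match describes letters and not a bound site. The positions of these windows are on GRCm38.p6, and all other positions in this text are on mm9 (NCBIM37), the build of the files.

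The targeted gene was checked first. Pcgf5 (chromosome 19, 36453557 to 36530694) had 5.18 and 3.63 FPKM in the wild-type samples of day 0, against 1.28 and 1.84 FPKM in the Pcgf5-/- samples. By day 6 these were 9.16 and 5.06 FPKM against 0.669 and 0.457 FPKM. On the log2 scale Pcgf5-/- minus wild type came to -1.07 at day 0 (standard error, SE, 0.28, limma adjusted p = 0.105) and -2.33 at day 6 (SE 0.28, limma adjusted p = 0.00421), with both Pcgf5-/- samples below both wild-type samples on each day. Fold changes here are on the log2(FPKM + 1) scale, which understates changes of low genes. Limma's p-values were adjusted over all 13214 genes by Benjamini and Hochberg, with a threshold of 0.05. They rest on the spread between the 2 samples of each condition, pooled over the 4 conditions and moderated by that of other genes. For its day 6 heatmaps the paper describes the lanes as independent biological samples. The labels do not say whether samples #1 and #2 were separate cultures. An exact permutation test of 2 against 2 samples cannot go below 0.333. The low-value steps of the FPKM put the depths of the 8 samples within 1.00 to 1.30 times that of the shallowest. Samples of 1 condition correlated across genes at r = 0.972 to 0.974, and no pair of samples shared more than 1 identical value above 0. A list of 20 other genes of the pluripotency network summed to 3010 to 3214 FPKM in the day 0 samples labelled as mESCs, with no gene of the list at 0.

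At day 0 the mESCs of both genotypes held the naive factors at high and similar levels. The 9 genes summed to 707 and 683 FPKM in wild type and to 722 and 731 FPKM in Pcgf5-/- mESCs. Of the 9, 0 passed limma's threshold between genotypes, where 0.333% of all genes tested did. An unadjusted limma p under 0.05 was reached by 0 of the 9 and by 2294 of the 13214 genes tested. The median log2 fold change of the 9 was 0.06, beside 0.11 over all genes. The signs of the small differences of Klf2, Klf5, Esrrb and Prdm14 turned with the scaling between samples or with 1 sample left out.

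At day 6 all 9 factors had fallen in wild type and 8 of them, all but Prdm14, in Pcgf5-/- cells, where the summed level was higher. The sum was 52.7 and 26.8 FPKM in wild type against 182 and 147 FPKM in the mutant, so the genotypes did not overlap. Sample by sample, 8 of the 9 genes had both Pcgf5-/- samples above both wild-type samples, where 33.4% of all genes tested did. Of the 9 genes, 8 were higher in Pcgf5-/- cells at day 6, where 9.57% of all genes tested were higher, and 0 were lower, where 7.05% of all genes were. The median log2 fold change of the 9 was 1.89 and that of all genes 0.02. Tbx3 was the member that did not pass. In bulk samples fewer cells that express a gene and less RNA per cell cannot be told apart. As the day 6 comparison of genotypes uses the same samples as the comparisons between days, these are given side by side and not as independent results.

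**Figure D1:**
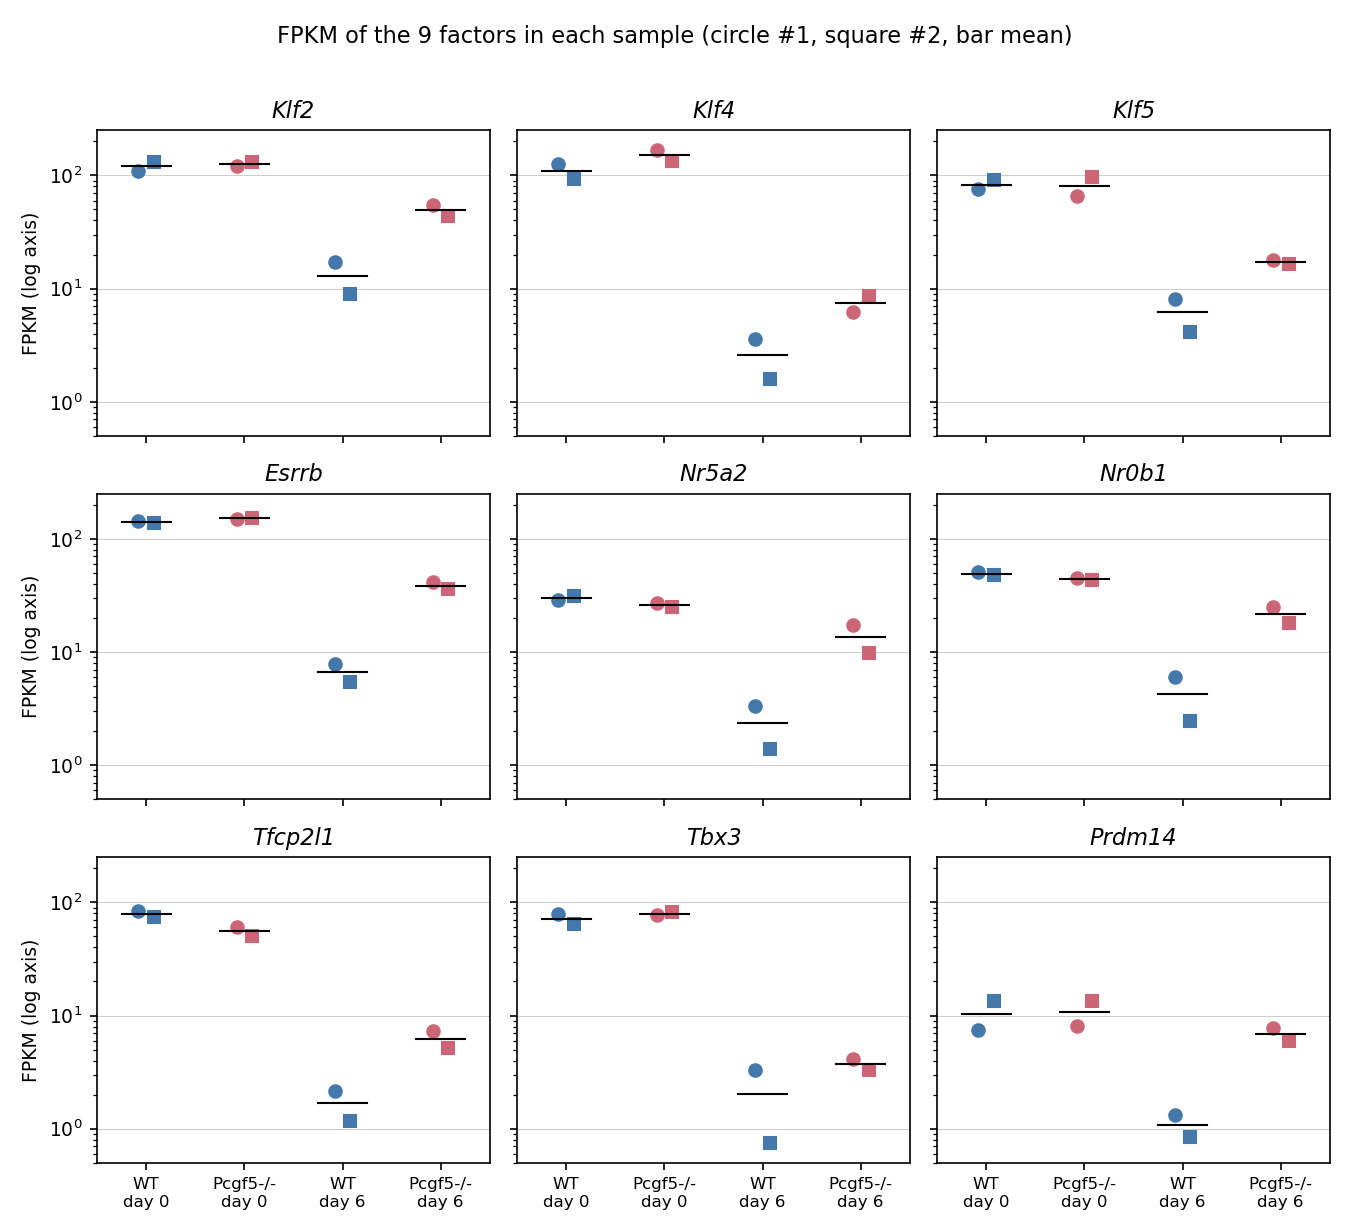
FPKM of each of the 9 factors (log axis) by genotype and day, with sample #1 as a circle, sample #2 as a square and the mean of the 2 as a bar. At day 0 the genotypes sit at similar heights, and at day 6 both Pcgf5-/- samples lie above both wild-type samples for every gene except Tbx3, whose wild-type sample #1 lies between them.

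The 3 Krüppel-like factors KLF2, KLF4 and KLF5 are zinc finger proteins that can stand in for each other in part in mESCs. Klf2 (chromosome 8, 74842961 to 74845553) began at 109 and 131 FPKM in wild-type mESCs, against 120 and 132 FPKM in the mutant. By day 6 the wild-type samples were down to 17.1 and 8.98 FPKM, while the Pcgf5-/- samples still had 54.4 and 43.99 FPKM. The day 0 samples interleaved between genotypes, and the day 6 samples did not overlap. Pcgf5-/- cells were 3.78 times higher in mean FPKM at day 6, a log2 fold change of 1.89 (SE 0.26, limma adjusted p = 0.00571).

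Klf4 (chromosome 4, 55540009 to 55545347), one of the reprogramming factors and a STAT3 target, started as high as Klf2 and lost far more. Wild-type mESCs had 127 and 92.9 FPKM of it, and Pcgf5-/- mESCs 169 and 133 FPKM. Both Pcgf5-/- samples lay above both wild-type samples at day 0, by 0.46 on the log2 scale (SE 0.29, limma adjusted p = 0.465), and such a separation upwards was seen for 34.6% of all genes tested. After differentiation 3.57 and 1.58 FPKM were left in wild type, against 6.27 and 8.53 FPKM in the mutant, a log2 fold change of 1.28 (SE 0.29, limma adjusted p = 0.0229). The Klf4 call was lost without the filter on low values (limma adjusted p = 0.0642) and in a fit of the day 6 samples alone (limma adjusted p = 0.064).

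Klf5 (chromosome 14, 99697910 to 99712628), which is also needed in the blastocyst, started from 75.7 and 90.2 FPKM in wild type, with 65.7 and 96.8 FPKM in Pcgf5-/- mESCs. The wild-type values lay between the Pcgf5-/- values. The day 6 values were 8.15 and 4.17 FPKM in wild type, against 18.0 and 16.4 FPKM in the mutant. The genotypes did not overlap at day 6, and the log2 fold change was 1.40 (SE 0.28, limma adjusted p = 0.0152).

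Esrrb, Nr5a2 and Nr0b1 are orphan nuclear receptors, and they were among the genes that differed most between genotypes at day 6. ESRRB is a central target of GSK3 inhibition and NANOG in mESCs. Esrrb (chromosome 12, 87702067 to 87862578) had the highest level of the 9 at day 0, at 144 and 138 FPKM in wild type, against 150 and 154 FPKM in the mutant. Wild-type cells had only 7.77 and 5.45 FPKM of it at day 6, and Pcgf5-/- cells 41.7 and 35.8 FPKM. Its log2 fold change of 2.40 (SE 0.16, limma adjusted p = 0.00215) had rank 16 from the top of all genes tested and was the largest of the 9.

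NR5A2, also called LRH-1, binds the regulatory regions of Oct4 and keeps it on in the epiblast. Nr5a2 (chromosome 1, 138740161 to 138857025) was lower from the start, at 28.6 and 31.1 FPKM in wild type, against 27.3 and 25.05 FPKM in the mutant. Differentiated wild-type cells had 3.31 and 1.40 FPKM, and Pcgf5-/- cells 17.4 and 9.79 FPKM. The spread between the Pcgf5-/- samples was wide, yet the lower of them was 2.96 times the higher wild-type sample. The log2 fold change was 2.13 (SE 0.31, limma adjusted p = 0.00741).

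NR0B1, or DAX1, lacks the usual DNA-binding domain of its family and binds to other factors, among them OCT4 and NR5A2. Nr0b1 (chromosome X, 83437114 to 83441285) stood at 50.6 and 47.5 FPKM in wild-type mESCs, against 44.7 and 43.3 FPKM in the mutant. Of this, wild-type cells had 6.06 and 2.44 FPKM at day 6, and the mutant 25.2 and 18.1 FPKM, a log2 fold change of 2.18 (SE 0.30, limma adjusted p = 0.00618). Nr0b1 and Nr5a2 were each other's nearest gene among the 9, and the ratio of Nr0b1 to Nr5a2 stayed between 1.45 and 1.85 in all 8 samples.

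Tfcp2l1 and Tbx3 both fell to a few percent of their day 0 level in wild type, and between genotypes Tfcp2l1 passed at day 6 while Tbx3 did not. TFCP2L1 is a CP2 family factor that LIF and STAT3 switch on. Tfcp2l1 (chromosome 1, 120524522 to 120581745) reached 84.7 and 74.3 FPKM in wild-type mESCs, but 60.2 and 50.9 FPKM in the mutant. This was the largest day 0 difference of the 9, -0.51 on the log2 scale with a 95% interval from -1.03 to 0.01 (unadjusted p = 0.0522, limma adjusted p = 0.295), and both Pcgf5-/- samples were lower, as they were for 13.3% of all genes tested. At day 6 the order turned, from 2.17 and 1.17 FPKM in wild type up to 7.28 and 5.18 FPKM in the mutant. This gave a log2 fold change of 1.45 (SE 0.23, limma adjusted p = 0.00840).

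TBX3 is a T-box factor that can replace LIF in part when it is kept on. Tbx3 (chromosome 5, 120120871 to 120134733) held 79.4 and 64.1 FPKM in wild-type mESCs, against 76.8 and 82.2 FPKM in the mutant. The day 6 samples had 3.32 and 0.752 FPKM in wild type, against 4.13 and 3.31 FPKM in the mutant. The wild-type samples differed 4.42-fold from each other, and the higher of them overlapped the Pcgf5-/- values. The log2 fold change was 0.77 with a 95% interval from -0.05 to 1.598 (limma adjusted p = 0.178), so a difference of the size seen for Klf5 was not excluded.

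PRDM14 represses FGF receptor signaling and DNA methyltransferases in mESCs and acts again in primordial germ cells. Prdm14 (chromosome 1, 13103509 to 13117244) had the lowest level of the 9 at day 0, at 7.42 and 13.3 FPKM in wild type, against 8.13 and 13.3 FPKM in the mutant. In differentiated wild-type cells 1.31 and 0.843 FPKM were measured, and in Pcgf5-/- cells 7.72 and 5.93 FPKM. The day 6 mean was 6.33 times higher in Pcgf5-/- cells, the largest ratio of the 9, with a log2 fold change of 1.91 (SE 0.32, limma adjusted p = 0.00932).

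**Figure D2:**
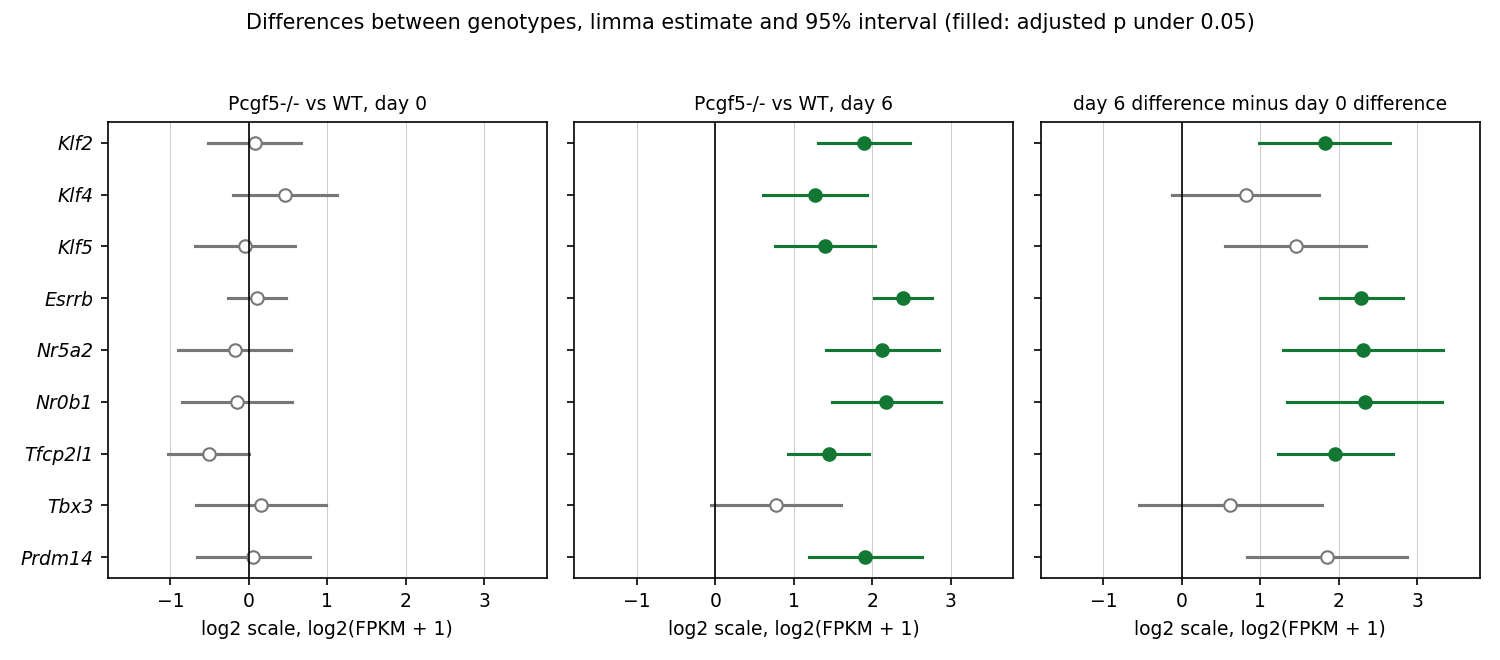
Limma log2 differences between Pcgf5-/- and wild type for the 9 factors at day 0 (left) and day 6 (middle), and the day 6 difference minus the day 0 difference (right), with 95% intervals. Filled points have an adjusted p under 0.05, which 0 of 9 reached at day 0, 8 of 9 at day 6 and 5 of 9 in the difference between the days.

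Single samples weighed on these calls. Without sample #1 of Pcgf5-/- at day 6 only Esrrb of the 9 passed (limma adjusted p = 0.0238) and the others that had passed lay between 0.0505 and 0.0899. Without sample #2 of wild type at day 6, 5 passed, as Klf4, Klf5 and Prdm14 did not (limma adjusted p = 0.111, 0.0696 and 0.0594), and Tbx3 dropped to a log2 fold change of 0.12 (limma adjusted p = 0.783). Without sample #2 of Pcgf5-/- at day 6, 6 passed, as Klf4 and Klf5 did not (limma adjusted p = 0.111 and 0.0592). In contrast, without sample #1 of wild type at day 6 all 9 did, with Tbx3 at a log2 fold change of 1.42 (limma adjusted p = 0.012). No member's day 6 difference changed sign when any 1 of the 8 samples was left out.

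In wild type all 9 factors fell between day 0 and day 6, and 0 rose, where 16.2% of all genes tested fell and 34.2% rose. The log2 fold changes ranged from -5.00 for Klf4 to -2.41 for Prdm14, with limma adjusted p-values of at most 0.000473. The median was -3.60, beside 0.22 over all genes. The mean FPKM left at day 6 was 2.101% of the day 0 level for Tfcp2l1, 2.34% for Klf4, 2.84% for Tbx3, 4.68% for Esrrb, 7.43% for Klf5, 7.88% for Nr5a2, 8.68% for Nr0b1, 10.4% for Prdm14 and 10.8% for Klf2. Counted from the largest fall of the 13214 genes, Klf4 had rank 10 and Tfcp2l1 rank 12.

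In Pcgf5-/- cells the falls were spread much wider. Of the 9 factors, 8 fell and 0 rose, where 10.4% of all genes fell and 21.9% rose, and the median log2 fold change was -1.95, beside 0.13 over all genes. Tbx3 and Klf4 kept 4.67% and 4.90% of their day 0 level and Tfcp2l1 kept 11.2%. Klf5, Esrrb and Klf2 kept 21.1%, 25.4% and 39.0%. Nr0b1 and Nr5a2 kept 49.2% and 51.9%, with log2 values of -1.01 and -0.95 close to the threshold (limma adjusted p = 0.0366 and 0.0498).

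Prdm14 kept 63.6% and did not pass, with a log2 fold change of -0.56 (95% interval from -1.28 to 0.17, limma adjusted p = 0.210), although both day 6 samples lay below both day 0 samples, as in 25.1% of all genes tested. With 1 sample left out, Nr5a2 passed in 3 of 8 fits (without either wild-type day 6 sample or without Pcgf5-/- day 6 sample #1) and Nr0b1 in 2 of 8 (without either wild-type day 6 sample), and their limma adjusted p reached 0.265 and 0.186 without Pcgf5-/- day 6 sample #2. Prdm14 passed in 0 of 8, with a log2 fold change of -0.23 without Pcgf5-/- day 0 sample #2 and of -0.88 without sample #1 of that condition. The percent left of sample pairs, each day 6 sample over each day 0 sample of its genotype, overlapped between the genotypes for Klf4 (1.25% to 3.84% in wild type and 3.71% to 6.42% in Pcgf5-/- cells) and for Tbx3, and for no other of the 9.

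**Figure D3:**
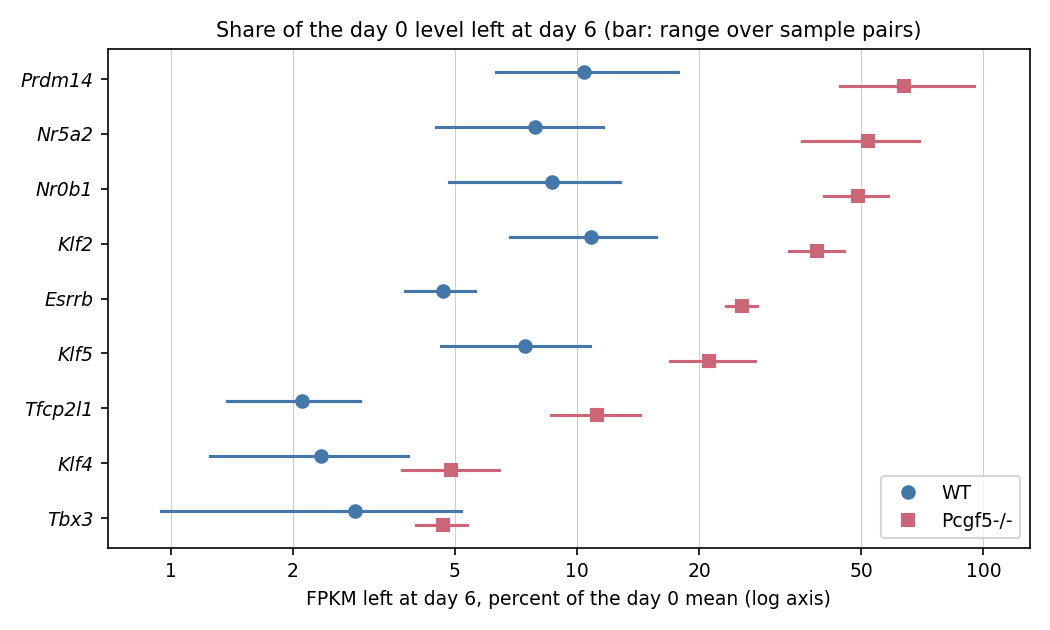
Mean FPKM at day 6 in percent of the day 0 mean of the same genotype (log axis) for each factor, with wild type as circles and Pcgf5-/- as squares, and bars for the range over the 4 pairs of a day 6 and a day 0 sample. Tbx3 and Klf4 are at the bottom with 4.67% and 4.90% left in Pcgf5-/- cells, and Prdm14 is at the top with 63.6%.

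The difference between the genotypes' falls was tested in the same fit as the day 6 difference minus the day 0 difference. It passed for 5 of the 9 factors, where 1.34% of all genes tested passed in that direction and 3.09% in either. These were Nr0b1 with 2.33 on the log2 scale (SE 0.43, limma adjusted p = 0.0361), Nr5a2 with 2.31 (0.44, limma adjusted p = 0.0390), Esrrb with 2.29 (0.23, limma adjusted p = 0.0141), Tfcp2l1 with 1.96 (0.32, limma adjusted p = 0.0299) and Klf2 with 1.82 (0.36, limma adjusted p = 0.0435). All 3 nuclear receptors were among them.

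Prdm14 with 1.86 (0.45, limma adjusted p = 0.0631), Klf5 with 1.45 (0.39, limma adjusted p = 0.0819), Klf4 with 0.82 (0.41, limma adjusted p = 0.273) and Tbx3 with 0.62 (0.51, limma adjusted p = 0.502) did not pass. Their intervals reached from 0.83 to 2.88 for Prdm14 and from -0.12 to 1.75 for Klf4. With 1 sample left out the count fell in all but 1 of the fits. It was 0 without sample #2 of either genotype at day 0 or without either Pcgf5-/- sample of day 6, 1 (Esrrb) without wild-type day 0 sample #1 or day 6 sample #2, 2 without Pcgf5-/- day 0 sample #1 and 6 without wild-type day 6 sample #1.

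The order of the levels also changed from day 0 to day 6. At day 0 Esrrb was highest in both genotypes. In wild type Klf2 and Klf4 followed, whose samples overlapped, and in Pcgf5-/- cells Klf4, whose samples overlapped those of Esrrb, and then Klf2. Klf5, Tfcp2l1 and Tbx3 overlapped their neighbours in wild type, and Nr0b1, Nr5a2 and Prdm14 were the lowest in this order without overlap in both genotypes. At day 6 Klf2 was highest in both genotypes. The wild-type levels from Esrrb down to Prdm14 overlapped from each gene to the next. In Pcgf5-/- cells the order was Klf2, Esrrb, Nr0b1, Klf5, Nr5a2, Klf4, Prdm14, Tfcp2l1 and Tbx3, with overlaps between Klf5 and Nr5a2 and from Klf4 to Tfcp2l1.

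Within each sample, Klf2 took a larger part of the summed FPKM at day 6 than at day 0, and Klf4 a smaller one. Klf2 made up 15.4% to 19.2% of the sum in the 4 day 0 samples and 29.9% to 33.5% in the 4 day 6 samples. Klf4 went from between 13.6% and 23.4% to between 3.45% and 6.77%. The ratio of Klf2 to Klf4 was 0.71 to 1.41 at day 0 and 4.77 to 8.67 at day 6, so it was higher at day 6 in wild type and in Pcgf5-/- cells alike. Prdm14 was the smallest part at day 0 (1.05% to 1.95%) and made up 4.03% and 4.24% in Pcgf5-/- cells at day 6.

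**Figure D4:**
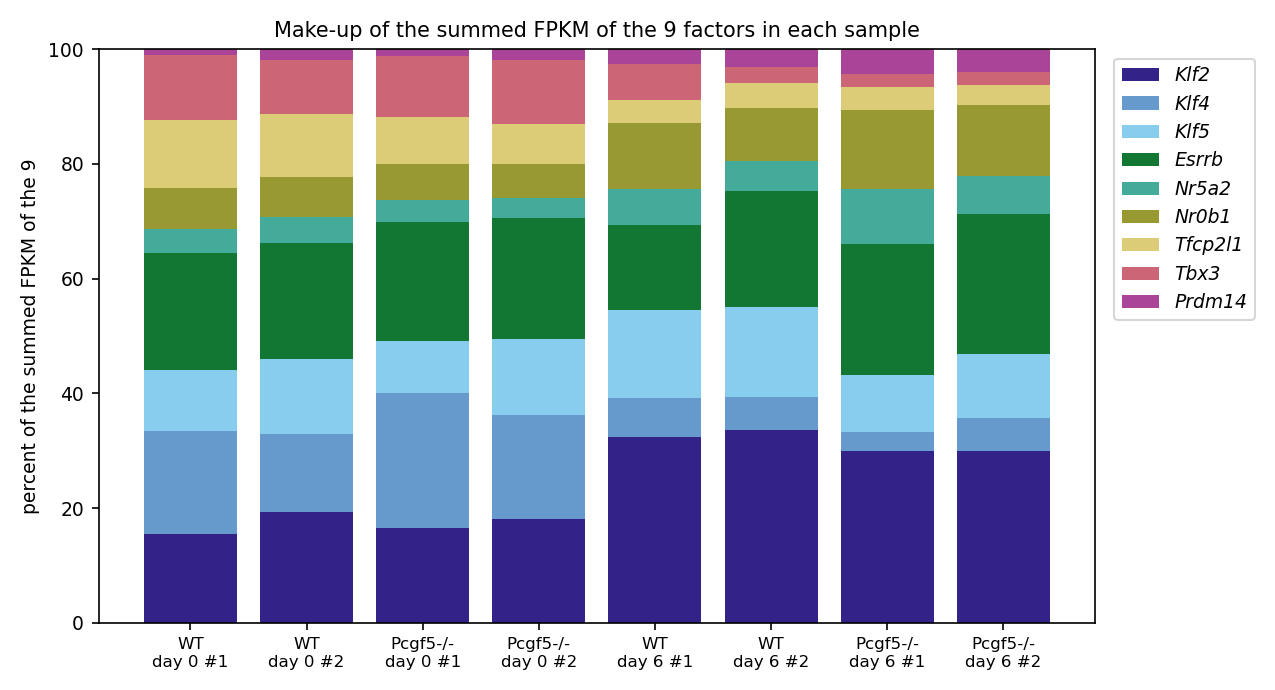
Share of each factor in the summed FPKM of the 9, in percent, for each of the 8 samples as stacked bars. Klf2 widens from at most 19.2% at day 0 to at least 29.9% at day 6 in both genotypes, while Klf4 narrows from at least 13.6% to at most 6.77%.

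Seen among all genes tested, the 9 factors lay between percentiles 55.4 and 96.6 of mean FPKM at day 0. In wild type at day 6 they lay between percentiles 9.88 (Prdm14) and 57.7 (Klf2). In Pcgf5-/- cells at day 6 they spanned percentiles 28.1 (Tbx3) to 87.0 (Klf2). The 5 genes below, which are no members, ran closest to the mean profile of the 9, by the root mean square difference of centred log2(FPKM + 1) over the 8 samples. These were Rpp25 (0.145), Tdh (0.150), Arl14epl (0.161), Pfkp (0.198) and Cpt1a (0.198). Among the members Klf5 (0.185) and Esrrb (0.266) were nearest to that mean, while Tbx3, Prdm14 and Klf4 (0.798 to 0.860) were farthest. Klf4 and Tbx3 were each other's nearest member (0.325).

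The genes of OCT4 and NANOG and most other genes of a pluripotency network list were also higher in Pcgf5-/- cells at day 6. Of its 20 genes, 17 were higher and 0 lower, where 9.57% and 7.05% of all genes tested were. The median log2 fold change of the 20 was 2.02. Pou5f1, which encodes OCT4, had 93.8 and 36.2 FPKM in wild type, against 254 and 228 FPKM in the mutant (log2 fold change 2.03, limma adjusted p = 0.0107). Nanog had 43.0 and 22.2 FPKM against 144 and 139 FPKM (2.16, limma adjusted p = 0.00421), and Zfp42, the mESC marker REX1, had 33.5 and 14.1 FPKM against 98.4 and 88.1 FPKM (2.04, limma adjusted p = 0.00852). For all 3 genes both Pcgf5-/- samples lay above both wild-type samples.

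Sox2, which neural progenitors also express, was at 98.3 and 102 FPKM in wild type at day 6, against 125 and 121 FPKM in the mutant, a log2 fold change of 0.30 (limma adjusted p = 0.0901). Sox2, Sall4 and Gbx2 were the 3 genes of the list that did not pass, the others at 0.43 (Sall4) and 0.99 (Gbx2, limma adjusted p = 0.125 and 0.364), and they are named because of that result. The largest differences were those of Gdf3, a TGF-beta family ligand (2.60), the maternal factor Dppa3 (2.51) and the NODAL co-receptor Tdgf1 (2.44, limma adjusted p = 0.00758, 0.0104 and 0.0147). At day 0, 0 of the 20 genes passed, and 0 had an unadjusted limma p under 0.05, where 2294 of the 13214 genes tested did.

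Between days the network fell in wild type and was mixed in Pcgf5-/- cells. In wild type 18 of 20 fell, where 16.2% of all genes tested did. Tcl1, Tdh and Fbxo15 fell most (log2 fold changes -4.32, -3.91 and -3.90). Pou5f1 (-2.57), Nanog (-3.22), Zfp42 (-3.47) and Sox2 (-0.73) fell too (limma adjusted p at most 0.000754). In Pcgf5-/- cells 10 of 20 fell and 3 rose, where 10.4% and 21.9% of all genes tested did. Pou5f1 changed by -0.52 (limma adjusted p = 0.293), and Nanog (-1.35), Zfp42 (-1.18) and Sox2 (-0.35) fell. The 3 that rose were Gbx2 (2.75), Dppa3 (2.62) and Utf1 (0.98), while 0 of the 9 naive factors rose. The difference between the genotypes' falls passed for 6 of the 20, where 1.34% of all genes tested passed in that direction. Among the 6 were Zfp42 (2.29), Tcl1 (2.04), Utf1 (1.96) and Nanog (1.88). The difference did not pass for Pou5f1 (2.06, limma adjusted p = 0.0645) or Sox2 (0.38, limma adjusted p = 0.179).

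**Figure D5:**
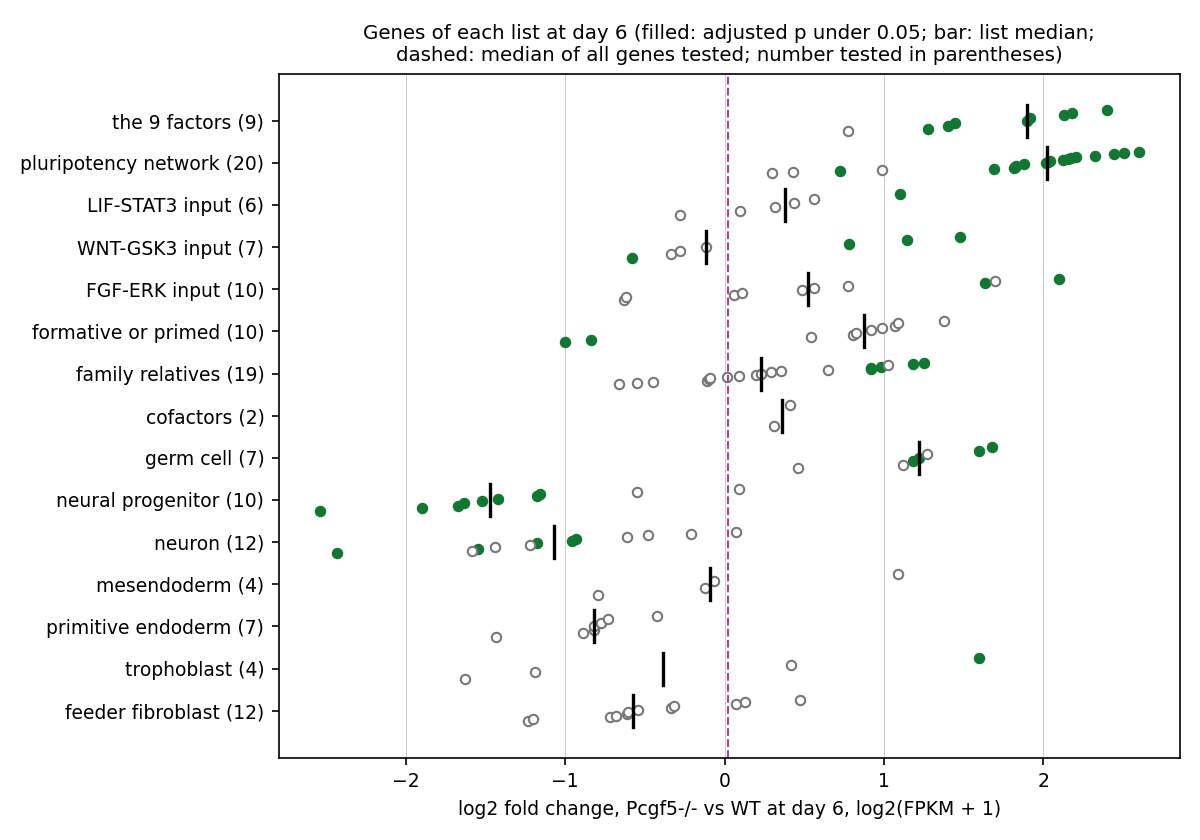
Limma log2 fold change at day 6 (Pcgf5-/- against wild type) of each tested gene of 15 groups, with filled points for an adjusted p under 0.05, black bars for the group median and a dashed line for the median of all genes tested (0.02). The 9 factors (median 1.89) and the pluripotency network (2.02) lie to the right, and neural progenitor (-1.47) and neuron (-1.07) genes to the left.

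The signaling genes that feed the factors gave a mixed picture. For comparison, 9.57% of all genes tested were higher in Pcgf5-/- cells at day 6 and 7.05% were lower. Of 6 genes of the LIF and STAT3 branch, 1 was higher at day 6, Stat3 itself (log2 fold change 1.10, limma adjusted p = 0.00758). It had 7.32 and 5.597 FPKM in wild type against 15.1 and 14.7 FPKM in the mutant. At day 0 it had 36.3 and 29.2 FPKM in wild type against 47.9 and 45.3 FPKM in the mutant (0.50, limma adjusted p = 0.170). The STAT3 target Socs3, Stat3 and Pim1 fell between days in both genotypes, with log2 fold changes of -2.55, -2.18 and -1.53 in wild type and of -2.30, -1.58 and -0.96 in Pcgf5-/- cells. In the GSK3 branch 3 of 7 genes were higher and 1 lower at day 6. The higher ones encode the DNA-binding partners of beta-catenin, Lef1 (1.48), Tcf7 (1.15) and the repressor Tcf7l1 (0.78), and the lower one was Gsk3b (-0.58, limma adjusted p = 0.0463).

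Of 10 genes of the FGF and ERK branch, 2 were higher in Pcgf5-/- cells at day 6. Both were ETS factors, Etv4 (2.096) and Etv5 (1.63, limma adjusted p = 0.0206 and 0.0185). Of the 10, 8 had a positive log2 fold change, and the median was 0.53, beside 0.02 over all genes. Fgfr2, Egr1 and Dusp6 rose between days in both genotypes. Of the 2 cofactors listed, Ncoa3, a coactivator of ESRRB, and Cbfa2t2, a partner of PRDM14, 0 passed between genotypes at day 6, while both fell between days in wild type (-0.70 and -0.57, limma adjusted p = 0.0205 and 0.0228) and 0 of 2 passed in Pcgf5-/- cells. At day 0, 0 genes of these lists passed limma's threshold between genotypes, and 1 gene in each of the LIF, GSK3 and FGF branches had an unadjusted p under 0.05.

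Relatives from the same gene families were set beside the 9. Of 24 listed, 19 were tested, and 5 were higher and 0 lower in Pcgf5-/- cells at day 6 (median 0.23). Of all genes tested, 9.57% were higher and 7.05% lower. The largest differences among the relatives were those of Klf9 (1.25), Prdm1, the germ cell and plasma cell factor BLIMP1 (1.18), and Klf10 (0.98, limma adjusted p at most 0.016). The 4 relatives with the highest mean FPKM were Klf9 (32.8), Ubp1 (32.6), Klf6 (32.5) and Klf10 (29.1). Klf9 and Klf10 fell between days in both genotypes (-2.41 and -1.56 in wild type, -1.31 and -0.85 in Pcgf5-/- cells). Ubp1, a relative of Tfcp2l1, changed by at most 0.22 in any comparison and passed in none. Klf6 fell in Pcgf5-/- cells (-1.47, limma adjusted p = 0.0105).

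Genes of the formative and primed states, which follow the naive state, gave no uniform picture. Of 10 genes, 0 were higher and 2 lower in Pcgf5-/- cells at day 6, where 9.57% and 7.05% of all genes tested were. The 2 were Sox3 (-0.999) and Sall2 (-0.84, limma adjusted p = 0.018 and 0.0366), though 8 of 10 had a positive log2 fold change and the median was 0.87. SOX3 is also a factor of neural progenitors. Between days 4 of the 10 rose in wild type, near the 34.2% of all genes. In the mutant 8 rose, where 21.9% of all genes did. Foxd3 fell in both genotypes (-2.94 for wild type, -2.22 for the mutant). The day 6 difference minus the day 0 difference passed for Otx2 (2.80, limma adjusted p = 0.0495) in one direction and for Sox3 (-1.76, limma adjusted p = 0.0310) in the other. Otx2 was lower in Pcgf5-/- cells at day 0 (-1.42, limma adjusted p = 0.136) and higher at day 6 (1.37, limma adjusted p = 0.0603). Sox3 was at 0.76 at day 0 (limma adjusted p = 0.115). At day 0, 0 of the 10 genes passed between genotypes and 3 had an unadjusted limma p under 0.05, where 2294 of the 13214 genes tested did.

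Markers of other cell types were set beside the 9 factors. Of 10 neural progenitor genes, 8 were lower in Pcgf5-/- cells at day 6 (7.05% of all genes tested were), led by Pax3 (-2.54), Dach1 (-1.90) and Fabp7 (-1.67). Their summed level was 314 and 316 FPKM in wild type against 107 to 124 FPKM in the mutant. It had been 12.8 to 18.4 FPKM in the day 0 samples, and no marker of this list or of the neuron list was at 0 in a day 6 sample. All 10 rose between days in each genotype, led by Fabp7, Sox1 and Pax6. Of all genes tested, 34.2% rose in wild type and 21.9% in Pcgf5-/- cells. Of 12 neuron genes, 5 were lower at day 6 (7.05% of all genes tested were), led by Nefm (-2.43), Elavl3 (-1.55) and Elavl4 (-1.18). The neuron sum was 411 to 584 FPKM in wild type against 215 to 249 FPKM in the mutant, after 177 to 223 FPKM over the day 0 samples. Between days 9 of the 12 rose in wild type and 8 in Pcgf5-/- cells. Stmn2 fell in both (-0.88 in wild type and -1.39 in Pcgf5-/- cells), and Mapt fell in Pcgf5-/- cells (-1.68). The part of the cell mixture in the levels of the 9 factors was not tested.

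Of 7 germ cell genes, several of them shared with naive mESCs, 4 were higher in Pcgf5-/- cells at day 6, where 9.57% of all genes tested were. Dazl (1.68), Tfap2c (1.59) and Dnd1 (1.22) differed most. The sum of the 7 was 19.0 to 29.1 FPKM in wild type against 59.2 to 65.0 FPKM in the mutant. Of the 9 mesendoderm markers, 4 were tested and 0 passed at day 6 (sums 3.23 to 5.50 FPKM in wild type against 2.96 to 7.33 FPKM in the mutant). An unadjusted limma p under 0.05 was reached by 1 of the 4 and by 4315 of the 13214 genes tested. Of 8 trophoblast markers, 4 were tested and 1, Tfap2c, was higher in Pcgf5-/- cells (sums 131 to 258 FPKM in wild type against 77.9 to 107 FPKM in the mutant). Most of each sum was Krt18 (67.8 and 132 FPKM against 35.9 and 46.6 FPKM) and Krt8 (54.3 and 117 FPKM against 19.8 and 31.8 FPKM). Between days Krt18 (4.37), Krt8 (2.42) and Gata3 (0.93) rose in wild type and Tfap2c fell (-1.38). In Pcgf5-/- cells Krt18 (2.47) and Gata3 (1.00) rose. Cdx2 and Elf5, which define that lineage, were at most 0.555 and 0.0687 FPKM in any sample.

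Markers of feeder cells and of primitive endoderm were also measured. The 12 fibroblast markers of feeder cells summed to 181 and 289 FPKM in wild type and to 183 and 607 FPKM in Pcgf5-/- cells at day 0, and to 38.7 to 58.1 FPKM in all day 6 samples, with 0 genes called between genotypes on either day and no marker at 0 in any sample. The 9 factors summed to 722 FPKM in the Pcgf5-/- day 0 sample with the lower feeder sum and to 731 FPKM in the one with the higher feeder sum. The 8 primitive endoderm markers summed to 257 and 131 FPKM in the wild-type day 6 samples and to 112 and 85.1 FPKM in the Pcgf5-/- ones, after 130 to 272 FPKM over the day 0 samples. Most of each day 6 sum was Sparc, a matrix protein gene of other cells too, with 161, 115, 84.5 and 73.8 FPKM in the same order. Of 7 tested, 0 passed between genotypes at day 6, though all 7 had a negative log2 fold change (median -0.82, beside 0.02 over all genes). The defining marker Sox17 had 2.48 and 0.187 FPKM in wild type against 0.465 and 0.0248 FPKM in the mutant. Lama1 had 42.1 and 7.92 FPKM against 10.6 and 3.52 FPKM, Dab2 30.0 and 6.50 against 9.75 and 5.93, and Gata4 10.6 and 0.706 against 3.89 and 1.24. Between days 1 of the 7, Dab2, rose in wild type (2.78, limma adjusted p = 0.00621), where 34.2% of all genes did. Sparc, Sox17, Lama1, Gata4, Cdx2 and Elf5 were picked out after their values were seen.

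The 2 samples of a condition differed in the naive factors at day 6. In wild type all 9 factors were higher in sample #1, with a median log2 difference of 0.82, while 51.4% of all genes tested were higher in #1. In Pcgf5-/- cells 8 of 9 were higher in #1 (median 0.30), and Klf4 was lower. In the wild-type pair 19 of 20 network genes, 7 of 7 primitive endoderm genes and 12 of 12 neuron genes were also higher in #1. In the Pcgf5-/- pair 16 of 20, 7 of 7 and 10 of 12 of these were, where 46.3% of all genes tested were. Of the neural progenitor genes, 3 of 10 were higher in #1 in each genotype. At day 0, 5 of 9 factors were higher in #1 in wild type and 4 of 9 in Pcgf5-/- cells. The part of these sample differences in the comparisons of genotypes was not tested. The fits with a sample left out, above, show only how far single samples moved the calls, and fits with a replicate block are given below.

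None of the 9 genes lies on chromosomes 6 or 11, whose tested genes were higher as a whole in Pcgf5-/- cells, with log2 medians of 0.41 and 0.48 at day 0 and of 0.37 and 0.38 at day 6. The other 18 chromosomes had medians from 0.04 to 0.12 at day 0, and from -0.06 to 0.03 at day 6. Of the network genes named above, Nanog, Gdf3 and Dppa3 lie on chromosome 6, and of the signaling genes Tcf7l1 lies on 6 and Stat3, Socs3, Tcf7 and Etv4 on 11. None of the 9 rows overlaps another gene's row in the files. The nearest was Tbx3os2, 363 bases from Tbx3.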

How the data were processed

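Before depositing 1 table of FPKM per sample, the authors cleaned the read pairs (trimming, and removal of short or N-rich reads and of identical copies). TopHat2 2.0.4 placed them on mm9 (NCBIM37), and Cufflinks 2.1.1 gave the FPKM. The gene annotation is not given in the sources used here. Duplicate removal can compress the highest levels, and FPKM do not give absolute depth, so no counting interval is given. The deposited limits of each FPKM were not used, since 1074 to 1346 rows per sample lay above their own upper limit.

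All 8 samples entered 1 limma fit (3.58.1, R 4.3.3; trend) of log2(FPKM + 1) with a mean for each of 4 conditions and no block. Rows with a mean above 1 FPKM in at least 1 condition were tested (13214 of 24849), and p-values were adjusted by Benjamini and Hochberg. The fit was tested on simulated data. Python 3.11.15 computed levels, shares and motif matches.

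The 9 genes and the 14 lists around them (145 genes) were chosen with earlier results of these data known. Named are the 9 genes, Pcgf5, Pou5f1, Nanog, Sox2 and Zfp42 in every comparison, of each other list up to 3 genes past the threshold with the largest rise and 3 with the largest fall in a comparison, the 4 family relatives with the highest mean, and the 5 genes nearest to the mean profile of the 9. Not every gene that this rule allows is named. The labels do not say whether samples #1 and #2 were separate cultures, and 18 alternatives were tried.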

Additional observations from a re-analysis of the deposited data

Results flagged for a closer look

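For 5 of the 9 factors the genotype difference itself differed between day 6 and day 0 by limma's interaction test, and this drew attention to them. The day 6 difference minus the day 0 difference was 2.33 on the log2(FPKM + 1) scale for Nr0b1, 2.31 for Nr5a2, 2.29 for Esrrb, 1.96 for Tfcp2l1 and 1.82 for Klf2 (limma adjusted p from 0.0141 to 0.0435). Over the fits with 1 sample left out, the interaction stayed above 0 for all 5 and ranged from 2.07 to 2.51 for Esrrb, the narrowest range of the 5. Esrrb passed in 4 of these 8 fits, Tfcp2l1 in 2, and Klf2, Nr5a2 and Nr0b1 in 1 each. No group here had the 4 samples needed to look for a sample far from the others.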

How the results depend on the processing

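The 9 members called in wild type between days and the 0 called at day 0 were the same under all 18 alternatives. Over the alternatives the members called changed at day 6, between days in Pcgf5-/- cells and for the interaction (the day 6 difference minus the day 0 difference). The interaction count fell to 1 without the filter on low values. With 1 sample left out these counts were 1 to 9, 6 to 8 and 0 to 6. The cause of these changes was not tested.

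Counts over all genes moved more. At day 0 (44 genes) they were 7 with a pseudocount of 5, 6 without the filter, 102 with a mean FPKM above 5, 3 with quantile normalization, 2 with upper quartile scaling, 2 without limma's trend, 0 in a fit of the day 0 samples alone and 1 to 22 with 1 sample left out. At day 6 (2197 genes) they were 297 to 1977 with 1 sample left out, and between days in Pcgf5-/- cells (4271 genes) 2367 to 4147. For the interaction (408 genes) they were 251 with a pseudocount of 0.1, 86 without the filter and 4 to 347 with 1 sample left out.

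Some signs turned, all of them of differences that had not passed. At day 0 Klf2 was -0.0094 with quantile normalization, -0.053 with upper quartile scaling and -0.060 to 0.20 with 1 sample left out, Esrrb was -0.017 with upper quartile scaling, Prdm14 was -0.075 with quantile normalization, -0.057 with upper quartile scaling and -0.33 to 0.44 with 1 sample left out, and Klf5 was -0.33 to 0.23 with 1 sample left out. The interaction of Tbx3 (0.62) was -0.033 to 1.27 with 1 sample left out. Quantile normalization moved the median of all genes from 0.11 to -0.01 at day 0 and from 0.22 to 0.01 between days in wild type.

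The labels do not say what samples of 1 number share. The replicate differences correlated between genotypes at day 0 (r = 0.102) and day 6 (r = 0.388) and not across days (-0.08 to -0.02). With a replicate block the members called were 0 at day 0, 8 at day 6, 9 in wild type, 8 in Pcgf5-/- cells and 5 for the interaction (all genes 1, 2410, 6935, 4584 and 429). With a replicate block for each day they were 0, 8, 9, 9 and 7 (all genes 282, 3235, 7672, 5533 and 1167), as the fall of Prdm14 in Pcgf5-/- cells (limma adjusted p = 0.0216) and the interactions of Prdm14 and Klf5 (0.0195 and 0.0351) then passed.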

Other observations

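While the 9 naive factors fell or did not pass in Pcgf5-/- cells, 3 of 20 genes of the pluripotency network rose there between days. Of all genes tested, 21.9% rose there. Dppa3, a maternal factor that protects methylation in the zygote, had 14.7 and 8.41 FPKM at day 0 and 63.2 and 86.3 FPKM at day 6 in Pcgf5-/- cells, and in wild type it had 9.72 and 18.0 FPKM at day 0 and 18.7 and 7.78 FPKM at day 6. Its interaction was 2.74 (limma adjusted p = 0.0538). Utf1, a chromatin protein of pluripotent and germ cells, had 70.9 and 77.2 FPKM at day 0 and 154 and 139 FPKM at day 6 in Pcgf5-/- cells and fell in wild type from 59.1 and 65.8 FPKM to 43.8 and 21.9 FPKM, with an interaction of 1.96 (limma adjusted p = 0.0390). Gbx2, which also acts in the early neural plate, had 1.20 and 4.41 FPKM at day 0 and 30.4 and 16.1 FPKM at day 6 in Pcgf5-/- cells, against 1.37 and 9.64 FPKM and then 13.7 and 8.30 FPKM in wild type (interaction 1.53, limma adjusted p = 0.385).

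In the germ cell list 2 of 7 genes rose between days in Pcgf5-/- cells, near the 21.9% of all genes, Nanos3 (1.79 on the log2 scale) and Prdm1 (1.17), and 2 fell, Dazl (-1.90) and Kit (-1.65), where 10.4% of all genes fell. In wild type 4 of 7 fell, where 16.2% of all genes did, and 0 rose.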
